A study of Mus musculus with 12 samples.

Results

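Imprinted genes are expressed mainly from the copy inherited from 1 parent. The 10 genes described here, Peg3, H19, Igf2, Mest, Plagl1, Cdkn1c, Ndn, Grb10, Meg3 and Dlk1, are imprinted genes with known roles in growth, and they were chosen by symbol among the 27998 genes counted in single-cell RNA sequencing of the mouse mammary gland. The choice was made with earlier results of these data known. Each symbol matched 1 row, and all 10 had reads. The mice were inbred C57BL/6J females, so maternal and paternal copies carry the same sequence and the counts do not distinguish them. The study asked how ovarian hormones act on mammary fibroblasts in a model of menopause, in which 4-vinylcyclohexene diepoxide (VCD, 160 mg/kg per day for 15 days) destroys the ovarian follicles.

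Cells of the 4th mammary glands were profiled at 43 weeks in 12 groups of mice, with 1 library per group and the number of mice per library not given in the sources used here. The Intact group had no VCD, and all other groups had it. VCD_Vehicle received no hormone, VCD_E2 17β-estradiol (E2, 1 µg per animal per day), and VCD_E2_P4 E2 and progesterone (P4, 1 mg per animal per day), each for 1 week. VCD_E2_ICI received E2 and fulvestrant (ICI, 5 mg), an antagonist that degrades the estrogen receptor. VCD_Low_PBDE, VCD_Low_E2 and VCD_Low_E2_P4 repeated the first 3 VCD groups with food holding polybrominated diphenyl ethers (PBDE-47, PBDE-100 and PBDE-153 at 0.05, 0.0028 and 0.0063 mg/kg per day for 20 weeks). VCD_High_PBDE, VCD_High_PBDE_E2 and VCD_High_PBDE_E2_P4 did so at 1, 0.056 and 0.126 mg/kg per day for 1 week, so effects of dose and of duration cannot be told apart. VCD_Vehicle_NormEnv, a further group without hormone, stayed in ordinary caging with possible environmental PBDE. The 9 VCD libraries of hormone by PBDE level form a crossed layout with 3 libraries per hormone level, and the spread used in every hormone test is the spread between these libraries. Whether libraries of a hormone level came from separate batches of animals was not given, and p-values measure only the spread between them.

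The libraries held 41737881 to 109224969 unique molecular identifiers (UMIs, counted molecules), and 46257 of 58620 barcodes passed the quality filters. Fibroblasts (31376 cells) were divided by marker UMIs per 10000 into 4 subsets after the populations of the study: 11935 Dpp4+ cells (Dpp4 and Pi16), 6173 Fabp4+ cells (Fabp4), 1381 Tnc+ cells (Tnc and Mfap4) and 2856 Gdf10+ cells (Gdf10 and F3). Another 2335 fibroblasts passed several gates and 6696 none. The paper also describes a minor cluster expressing the member Dlk1, proposed to be preadipocytes, which was given no gate of its own here. Of the markers that were not used in the gates, 3 of 3 were highest in their own subset for Dpp4+, Tnc+ and Gdf10+ each, and 3 of 4 for Fabp4+, where Col15a1 was higher in Tnc+ cells (1017 against 747 CPM, UMI counts per 1000000 UMIs). Postn, by which the paper characterizes its cluster high in Tnc and Mfap4, was 5729 CPM in Tnc+ and 1730 CPM in Fabp4+ cells. Whether the Fabp4+ subset matches the paper's Fabp4-expressing cluster was not tested. In that cluster the paper saw no apparent change with E2 on its map of single cells. Adipocyte markers were near 0 in every subset (Adipoq at most 0.0451 CPM), and the tissue's adipocytes were excluded before loading. Cells within 25% above a gate made up 3.47% of Dpp4+, 5.23% of Fabp4+, 12.5% of Tnc+ and 10.4% of Gdf10+ cells. Among 66 pairs of libraries, 14 shared more than 20 cell barcodes, at most 185, and 1.45% of gated fibroblasts carried a barcode found in more than 1 library. The deposited libraries carry 2 library codes, and all 14 pairs lay within a code. Intact, VCD_Vehicle, VCD_E2, VCD_E2_P4 and VCD_Low_PBDE (5 libraries) share 1 code and the other 7 the other, so the code separates no PBDE from high PBDE in the layout and, at low PBDE, the library without hormone from both with hormone, and these cannot be told apart from it. With the code as a term, the E2 calls of Plagl1 and Ndn in Fabp4+, Plagl1 in Tnc+, Dlk1 in Dpp4+ and Cdkn1c in Gdf10+ cells and that of Dlk1 between subsets were lost.

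Among the members, Igf2 encodes a paternally expressed growth factor of the IGF pathway, and Dlk1 a paternally expressed membrane protein of the Notch ligand family that holds back adipocyte differentiation. Grb10 encodes an adaptor that inhibits signalling of the insulin and IGF receptors. Cdkn1c encodes p57, an inhibitor of cyclin-dependent kinases expressed from the maternal copy, and Ndn encodes necdin, a growth suppressor expressed from the paternal copy. Peg3 and Plagl1 (ZAC1) encode zinc-finger transcription factors and Mest an enzyme-like protein of the endoplasmic reticulum linked to adipose tissue expansion, all 3 expressed from the paternal copy. H19 and Meg3 are long non-coding RNAs of the maternal copy. H19 lies next to Igf2, and Meg3 next to Dlk1, and within each pair the genes are expressed from opposite parental copies under a shared control region. On GRCm38 (GENCODE M21), H19 lies at chr7:142575529-142578143 and Igf2 at chr7:142650766-142666816, Dlk1 at chr12:109452823-109463336 and Meg3 at chr12:109541001-109571726, and Cdkn1c at chr7:143458339-143461050. No member shares its strand with another gene of the files at its position, while 5 members have a counted gene on the opposite strand (Igf2os for Igf2, Copg2 and Gm44296 for Mest, Gm44732 for Cdkn1c, Gm32061 for Ndn and Gm26906 for Meg3).

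The sequences upstream of Peg3, Mest and Meg3 are shown because these members were higher with E2 in the Fabp4+ subset. H19 and Cdkn1c have no sequence in the table used, and Plagl1, also called there, has 109 bases before its first annotated exon and is not shown. They are RefSeq promoter sequences on GRCm38.p6, from 250 bases upstream and up to the first annotated exon base, written 5′ to 3′ on the gene's strand. There were 3 promoter entries for Mest, 2 for Meg3 and 1 for Peg3, and 1 per gene was read. The Mest sequence lies inside the annotated gene, which begins at chr6:30723547. Capitals mark GGGGCCCC, which is bound by the member Plagl1 (ZAC), CCAAT and TATAAA, each searched on both strands (ATTGG is CCAAT on the other strand).
Peg3, chr7:6730463-6730669, minus strand, 207 bases: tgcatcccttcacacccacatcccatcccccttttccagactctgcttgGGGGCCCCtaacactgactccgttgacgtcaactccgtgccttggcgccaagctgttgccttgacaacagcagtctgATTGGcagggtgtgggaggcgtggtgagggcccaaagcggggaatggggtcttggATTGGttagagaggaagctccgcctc
Mest, chr6:30737800-30738049, plus strand, 250 bases: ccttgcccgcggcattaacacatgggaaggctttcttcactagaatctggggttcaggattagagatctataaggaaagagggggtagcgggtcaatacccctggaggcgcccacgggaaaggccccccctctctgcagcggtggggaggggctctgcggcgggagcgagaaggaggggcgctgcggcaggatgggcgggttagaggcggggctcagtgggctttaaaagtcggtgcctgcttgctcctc
Meg3, chr12:109540746-109540995, plus strand, 250 bases: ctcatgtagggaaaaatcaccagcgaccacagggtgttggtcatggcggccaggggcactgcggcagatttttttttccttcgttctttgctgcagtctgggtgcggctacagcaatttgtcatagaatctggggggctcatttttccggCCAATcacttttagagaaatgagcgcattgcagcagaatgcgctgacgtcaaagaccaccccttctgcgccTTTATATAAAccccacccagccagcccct
Of 32851 promoters of 250 bases, 0.889% hold GGGGCCCC, 33.8% CCAAT, 12.4% TATAAA and 32.7% GGGCGG. Peg3 alone of the 8 members with a sequence held GGGGCCCC, and it held CCAAT at 2 positions. Meg3 held TATAAA on both strands in 1 overlapping run of letters, and CCAAT. Mest held none of these 3 and GGGCGG at 1 position.

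MicroRNA genes lie within H19, Mest, Igf2 (miR-483) and Meg3 (miR-770 and miR-1906). Those of H19 and Mest, which like Meg3 were called for E2 in both Fabp4+ and Tnc+ cells, are shown as examples with the seed (bases 2 to 8) in capitals.
miR-675-5p, in H19: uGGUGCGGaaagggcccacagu
miR-675-3p, in H19: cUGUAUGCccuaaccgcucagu
miR-335-5p, in Mest: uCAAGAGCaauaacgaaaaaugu
miR-335-3p, in Mest: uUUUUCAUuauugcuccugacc
The 4 seeds differ from each other. The UMI counts come from the 3′ ends of polyadenylated transcripts and so measure the host transcripts, not these microRNAs.

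All 10 members were higher in fibroblasts than in immune cells. In the sums of counts per library, tested with edgeR's quasi-likelihood test and Benjamini-Hochberg adjustment over all genes at 0.05 (the test used throughout), 10 of 10 members were called higher, where 86% of the 14655 genes tested were called and 44.9% were called higher. The log2 fold change was 6.44 ± 0.17 (SE) for Meg3, 6.00 ± 0.12 for Grb10, 5.76 ± 0.09 for Ndn, 5.49 ± 0.14 for Peg3 and 5.36 ± 0.28 for H19, over sums of 12 libraries. It was smaller for Plagl1 (2.20 ± 0.12). Igf2, the growth factor, was the lowest at 0.91 ± 0.41 (adjusted p = 0.0463 in edgeR), and it was called in 3 of 8 other settings and in 4 of 12 fits that left out a library. A UMI was seen in 86.4% of gated fibroblasts for Ndn, 70.4% for Grb10, 57.2% for Meg3, 53.9% for Cdkn1c and 28.4% for Peg3, against 3.5%, 1.86%, 6.53%, 5.04% and 1.54% of 6879 immune cells, at median depths of 17152 and 7522 UMIs. With each cell thinned to 5000 UMIs the shares were 56.6%, 40.6%, 48.6%, 32.2% and 16.6% against 1.75%, 0.929%, 3.01%, 3.08% and 0.640%. Igf2 was seen in 0.618% of gated fibroblasts and 0.262% of immune cells, and thinned in 0.27% and 0.227%, a share near that of the cell type that should lack it.

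Against endothelial cells, 9 of 10 members were called (35% of all genes), 6 higher and 3 lower in fibroblasts, where the median of all genes was 0.42. Only 102 endothelial cells were found, and 3 libraries had 10 or more. Meg3 was 6.26 ± 0.46 higher and Peg3 4.17 ± 0.52 higher in fibroblasts on the log2 scale. Igf2 was lower by a log2 fold change of -4.78 ± 0.80 and Mest by -2.06 ± 0.55 (a call lost without VCD_Low_E2_P4), and H19 differed by 0.04 ± 0.60 (adjusted p = 0.974 in edgeR). The endothelial sum held Mest at 45.7 CPM (70 UMIs, 95% Poisson interval 35.6 to 57.7), Igf2 at 13.7 CPM and Grb10 at 84.2 CPM, while the gated fibroblasts held 7.24, 0.457 and 119 CPM. Meg3 was 7.18 CPM in the endothelial sum and 80.5 CPM when endothelial cells were chosen at a doubled marker cut, so its endothelial level rests on few cells. Other cell types were too few for a test, and their intervals cover counting error only. The 58 muscle cells held H19 at 91.1 CPM (32 UMIs in 21 cells, interval 62.3 to 129), the 35 pericytes Dlk1 at 127 CPM (14 UMIs in 4 cells, interval 69.6 to 214), and the 62 Schwann cells Meg3 at 203 CPM and Cdkn1c at 146 CPM. The 171 luminal cells were at or below 9.07 CPM for every member.

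**Figure D1:**
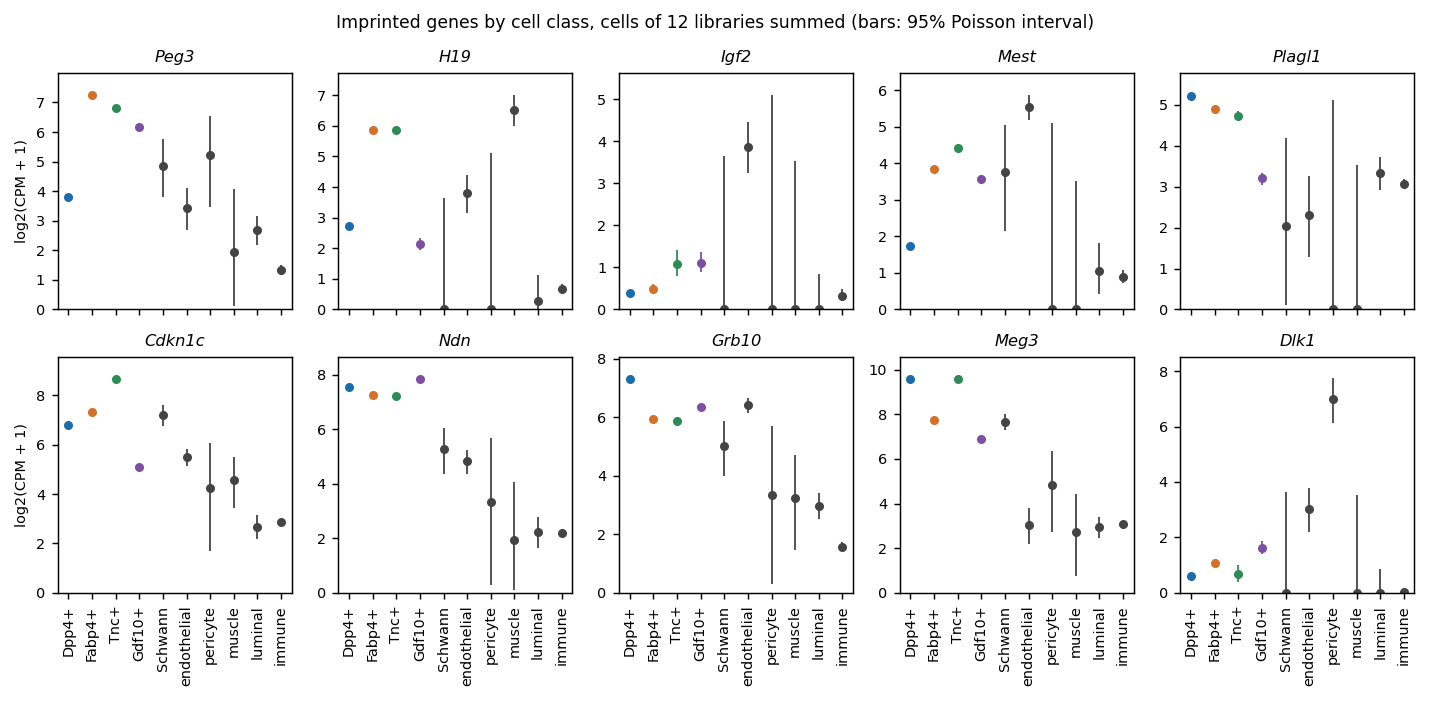
Levels of the 10 members by cell class, on a log2(CPM + 1) axis, each point being the summed counts of the class and the bar its 95% Poisson interval. The fibroblast subsets stand above the immune and luminal cells for most members, while Mest and Igf2 are highest in the 102 endothelial cells, H19 is high in the 58 muscle cells and Dlk1 in the 35 pericytes.

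The 4 fibroblast subsets differed in which imprinted genes they held. The transcription factor Peg3 was 150.3 CPM in Fabp4+ cells (52.8 to 324 over 12 libraries), 110.3 in Tnc+ (30.4 to 176), 70.8 in Gdf10+ (48.7 to 154) and 12.9 in Dpp4+ cells (6.83 to 29.5). The Dpp4+ range lay below the other 3, which overlapped each other. Grb10, the receptor adaptor, went the other way, at 159.5 CPM in Dpp4+ cells (132 to 196) and 80.9 (63.6 to 118), 60.4 (52.2 to 73.0) and 57.1 CPM (46.1 to 81.2) in Gdf10+, Fabp4+ and Tnc+ cells, with no overlap between Dpp4+ and the rest. The non-coding RNA Meg3 was 771 CPM in Tnc+ and 767 in Dpp4+ cells, against 212 in Fabp4+ and 116 in Gdf10+ cells. Its Tnc+ libraries ran from 201 to 1063 CPM and its Dpp4+ libraries from 553 to 1187, so the leading pair overlapped, and the Dpp4+ range lay above the Fabp4+ range (119 to 422). The order of that pair turned with hormone in the layout. Without hormone Tnc+ (201 to 403 CPM) lay below Dpp4+ (591 to 1187). With E2 + P4 it lay above (761 to 1063 against 553 to 604). The cell cycle inhibitor Cdkn1c was highest in Tnc+ cells (407 CPM, 129 to 686) and lowest in Gdf10+ cells (33.3 CPM, 17.7 to 51.9), and its Fabp4+ range (32.2 to 357) overlapped all others. Ndn moved least, from 149 CPM in Tnc+ to 229 CPM in Gdf10+ cells. Plagl1 was 36.2 CPM in Dpp4+ and 8.20 CPM in Gdf10+ cells, and Igf2 and Dlk1 were at or below 2.10 CPM in every subset's sum.

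**Figure D2:**
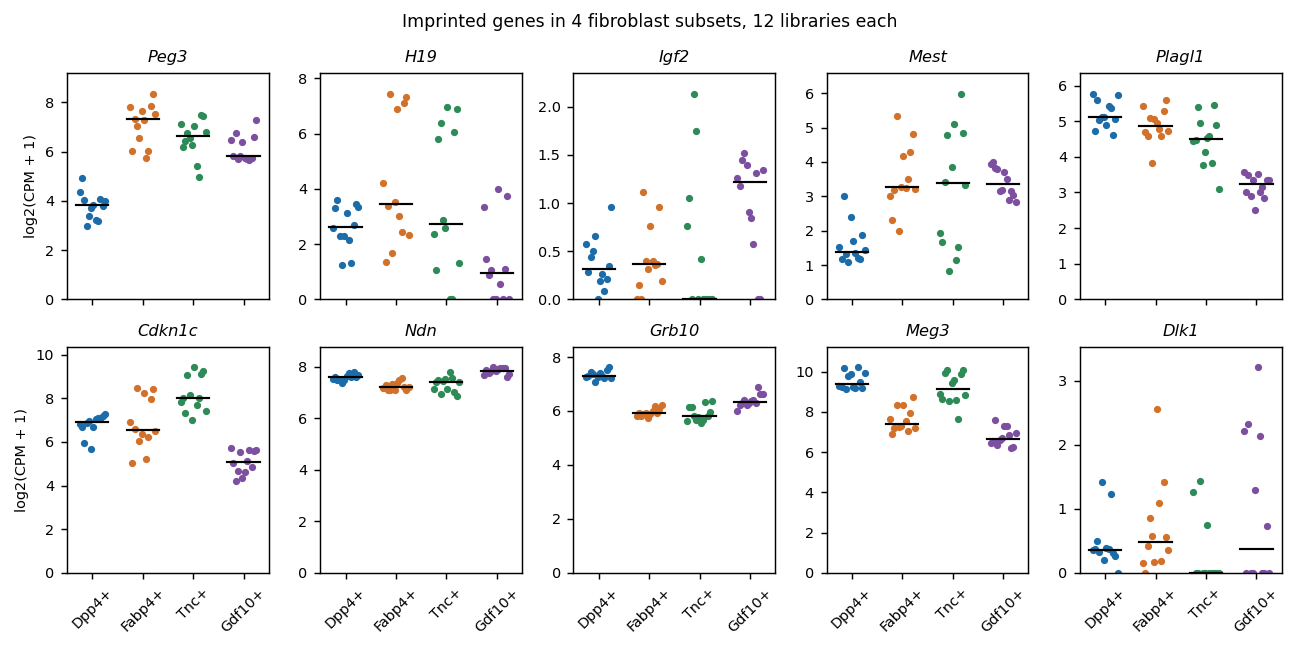
Levels of each member in the 4 fibroblast subsets on a log2(CPM + 1) axis, 1 point per library (12 per subset) with the median as a bar. Peg3 is lowest and Grb10 highest in Dpp4+ cells with no overlap, Cdkn1c, Plagl1 and Meg3 are low in Gdf10+ cells, and H19 in Fabp4+ and Tnc+ cells splits into high and low libraries.

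For the tests between subsets, the reference of each subset was the average of the remaining 3, and the library was a term, over 48 sums. Igf2 was below the filter on low counts, leaving 9 members. In Dpp4+ cells 6 of 9 members were called (69.8% of all genes): Grb10 (1.28 ± 0.06), Meg3 (1.73 ± 0.16), Plagl1 (1.05 ± 0.12) and Ndn (0.13 ± 0.05) higher, and Peg3 (-2.88 ± 0.18) and Mest (-2.42 ± 0.29) lower. In Fabp4+ cells 7 of 9 were called (55% of all genes), with Peg3 (1.62 ± 0.14), H19 (1.90 ± 0.37), Mest (0.68 ± 0.25) and Plagl1 (0.56 ± 0.12) higher and Meg3, Grb10 and Ndn lower. In Tnc+ cells 7 of 9 were called (52.3%), with Cdkn1c (1.86 ± 0.19), H19 (1.64 ± 0.45), Meg3, Mest and Peg3 higher and Grb10 and Ndn lower. These fits average over the hormone levels. In the layout libraries without hormone, mean Mest was 1.61 CPM in Tnc+, 1.21 in Dpp4+, 5.77 in Fabp4+ and 9.72 in Gdf10+ cells. Mean H19 was 2.47, 3.95, 2.75 and 0.587 CPM in the same order. Cdkn1c was still highest in Tnc+ cells there, at a mean of 265 CPM. In Gdf10+ cells 7 of 9 were called (43.2%), with Ndn (0.52 ± 0.05), Peg3 (0.39 ± 0.15) and Dlk1 (1.67 ± 0.55) higher and H19, Cdkn1c, Meg3 and Plagl1 lower. Ndn in Dpp4+ cells and Peg3 in Gdf10+ cells were called in 8 and 6 of 12 fits that left out a library, Mest in Fabp4+ cells was not called without VCD_E2_P4, and Dlk1 in Gdf10+ cells was not called without VCD_E2. Dlk1 in Gdf10+ cells rests on 12 of 2856 cells, with 0 UMIs in the 3 layout libraries without hormone, 31 UMIs from 5 cells of VCD_Low_E2_P4 and 14 from 1 cell in each of VCD_E2 and VCD_Vehicle_NormEnv.

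Among the members called for E2, H19 had the largest effects, in the Fabp4+ and Tnc+ cells. In the order no, low and high PBDE, H19 in Fabp4+ cells was 1.57, 2.18 and 4.49 CPM without hormone, 9.48, 10.5 and 139 CPM with E2, and 173, 118 and 160.0 CPM with E2 + P4. The hormone libraries did not overlap the libraries without hormone, and within the E2 level VCD_High_PBDE_E2 stood with the E2 + P4 libraries. The E2 effect, taken as the mean of the E2 and E2 + P4 libraries against those without hormone, was 4.86 ± 0.75 on the log2 scale (adjusted p = 0.00297 in edgeR). It was called in 10 of 10 other settings and in 9 of 9 fits that left out a library. These transcripts came from few cells: 8.03% of Fabp4+ cells had an H19 UMI, from 1.44% in VCD_High_PBDE to 32.4% in VCD_High_PBDE_E2_P4. After thinning to 5000 UMIs per cell these shares were 0.844% and 21.6%. Among immune cells 0.611% had one, at median depths of 7522 UMIs against 16663 in Fabp4+ cells, and H19 did not pass 1.74 CPM in the immune sum of any library. From VCD_Vehicle to VCD_E2_P4 the share of cells with H19 went from 1.71% to 25.2% (1.04% to 16.7% thinned) and the UMIs per cell with H19 from 1.4 to 16.6, so both differed between these libraries. Libraries outside the layout held H19 in Fabp4+ cells at 17.6 CPM (Intact, 95% Poisson interval 14.9 to 20.7), 7.20 CPM (VCD_Vehicle_NormEnv, 5.25 to 9.64) and 4.02 CPM (VCD_E2_ICI, 2.67 to 5.81).

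In Tnc+ cells H19 was 1.08, 6.32 and 0 CPM without hormone, 54.8, 4.95 and 65.5 CPM with E2, and 83.0, 125 and 118 CPM with E2 + P4. For the library at 0, the floor of 3 UMIs was 5.69 CPM and the upper 95% Poisson bound 7.00 CPM. All E2 + P4 libraries were above all others, while VCD_Low_E2 lay among the libraries without hormone. The E2 effect was 4.42 ± 0.89 (adjusted p = 0.00623 in edgeR), called in 10 of 10 other settings and in 8 of 9 fits that left out a library, the exception being VCD_Vehicle. The E2 libraries alone against those without hormone gave no call for H19 in Tnc+ cells. The 90 H19 UMIs of VCD_E2 came from 7 Tnc+ cells. H19 was 1.36 to 11.1 CPM in Dpp4+ cells and overlapped between hormone levels, with an E2 effect of 1.11 ± 0.59 (adjusted p = 0.251). A test of whether the E2 effect differed between the subsets gave an adjusted p of 0.0505 for H19 in edgeR.

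Cdkn1c, the p57 inhibitor, rose in Fabp4+ cells for the mean of E2 and E2 + P4, by 1.84 ± 0.29 (adjusted p = 0.0034 in edgeR). The E2 libraries alone against those without hormone gave no call for it there. In the same order its levels were 32.2, 65.8 and 74.3 CPM without hormone, 95.6, 82.0 and 249 CPM with E2, and 357, 297 and 339 CPM with E2 + P4. The 3 hormone levels did not overlap. In Tnc+ cells it was 254, 283 and 259.9 CPM without hormone, 161, 129 and 545 CPM with E2, and 536, 686 and 615 CPM with E2 + P4. There VCD_E2 and VCD_Low_E2 were below and the other hormone libraries above those without hormone, and the E2 effect was 0.49 ± 0.32 (adjusted p = 0.305), and 0.11 (adjusted p = 0.554) without VCD_High_PBDE_E2. In Gdf10+ cells, where Cdkn1c was lowest, it was 31.4, 45.3 and 48.7 CPM without hormone, 17.7, 19.4 and 27.4 CPM with E2, and 24.3, 23.3 and 47.4 CPM with E2 + P4. It fell by 0.66 ± 0.14 on the log2 scale (adjusted p = 0.0259), a call held in 6 of 10 other settings and 5 of 9 fits that left out a library. In Dpp4+ cells the effect was -0.36 ± 0.19 (adjusted p = 0.237), which without VCD_High_PBDE_E2 was -0.52 and called (adjusted p = 0.0428). The E2 effect on Cdkn1c differed between the 4 subsets (adjusted p = 8.57e-06 in edgeR), in all 10 other settings and all 9 fits that left out a library.

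Mest rose with E2 in Fabp4+ and Tnc+ cells. In Fabp4+ cells its levels were 3.93, 2.98 and 10.4 CPM without hormone, 8.05, 8.67 and 18.4 CPM with E2, and 39.3, 17.0 and 27.2 CPM with E2 + P4, an E2 effect of 1.69 ± 0.31 (adjusted p = 0.00673). The E2 + P4 libraries were above those without hormone, and the E2 libraries overlapped both. The E2 libraries alone against those without hormone gave no call for Mest in Fabp4+ cells. In Tnc+ cells it was 2.15, 0.790 and 1.90 CPM without hormone, 9.74, 13.5 and 62.2 CPM with E2, and 26.4, 33.3 and 27.4 CPM with E2 + P4. No hormone library overlapped those without, the E2 effect was 3.81 ± 0.72 (adjusted p = 0.00449), and the values without hormone rest on 4, 1 and 1 UMIs. In Dpp4+ cells Mest was 1.11 to 7.11 CPM with an effect of 1.26 ± 0.48 (adjusted p = 0.129), which without VCD_High_PBDE_E2 was 1.55 and called (adjusted p = 0.0205), in a fit that called 10.7% of all genes. In Gdf10+ cells it was 6.14 to 14.8 CPM with an effect of 0.13 ± 0.19 (adjusted p = 0.782).

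Meg3 rose with E2 in the same subsets, from 119, 149 and 132 CPM without hormone to 147, 155 and 244 CPM with E2 and 323, 323 and 422 CPM with E2 + P4 in Fabp4+ cells. The E2 effect there was 0.84 ± 0.13 (adjusted p = 0.00299 in edgeR), with the E2 + P4 libraries above all others. VCD_E2 was just below the highest library of the layout without hormone. Outside the layout, VCD_Vehicle_NormEnv, also without hormone, and Intact were above VCD_E2 and VCD_Low_E2. For E2 alone, the E2 libraries against those without hormone in the layout, the effect was 0.35 ± 0.14 and not called (adjusted p = 0.218). In Tnc+ cells it went from 403, 374 and 201 CPM to 959.9, 684 and 943 CPM with E2 and 1060.04, 761 and 1063 CPM with E2 + P4, by 1.44 ± 0.21 (adjusted p = 0.0011), and the hormone libraries did not overlap the others. In Dpp4+ cells the libraries without hormone spanned 591 to 1187 CPM, above those of Tnc+ cells, and those with hormone 553 to 1141 CPM. With E2 + P4 the Dpp4+ libraries (553 to 604 CPM) were below those of Tnc+ cells. The E2 effect in Dpp4+ cells was -0.27 ± 0.22 (adjusted p = 0.46 in edgeR). The E2 effect on Meg3 differed between the subsets (adjusted p = 0.00604 in edgeR), a call lost without VCD_High_PBDE.

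Peg3 rose with E2 in Fabp4+ cells, from 64.9, 93.1 and 63.2 CPM to 159.8, 201 and 226 CPM with E2 and 129, 156 and 324 CPM with E2 + P4. The hormone libraries did not overlap those without hormone, the E2 libraries lay within the E2 + P4 range, and the effect was 1.3 ± 0.22 (adjusted p = 0.00508). The Intact library held 221 CPM (95% Poisson interval 212 to 232) and VCD_Vehicle_NormEnv 52.8 CPM (47.3 to 58.8), and VCD_E2_ICI 184 CPM (174 to 195). In Tnc+ cells the E2 effect on Peg3 was 0.71 ± 0.32 (adjusted p = 0.138), in Gdf10+ cells 0.50 ± 0.22 (adjusted p = 0.232) and in Dpp4+ cells -0.20 ± 0.40 (adjusted p = 0.785). The test between subsets gave an adjusted p of 0.0318 in edgeR, kept in 3 of 9 fits that left out a library.

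**Figure D3:**
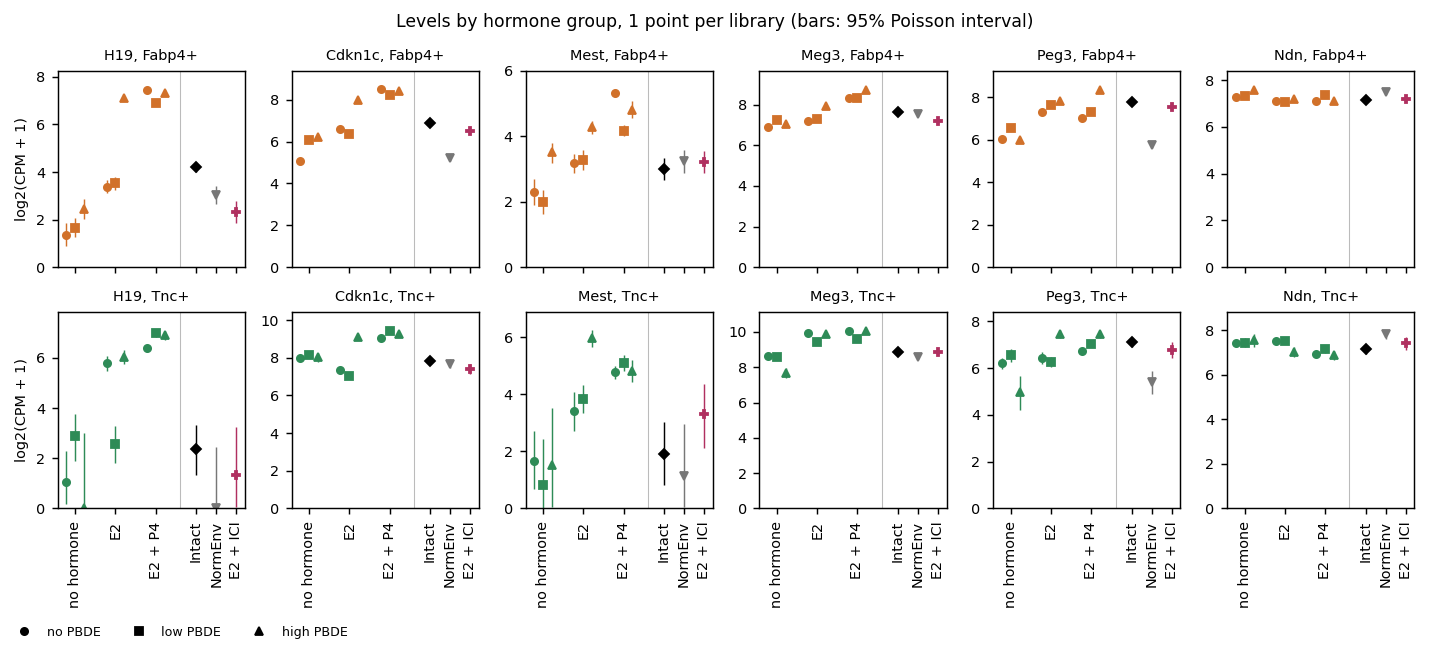
Levels of 6 members in Fabp4+ cells (upper row) and Tnc+ cells (lower row) on a log2(CPM + 1) axis, 1 point per library by hormone level and PBDE level, with 95% Poisson bars, and the 3 libraries outside the layout at the right. H19, Mest and Meg3 are higher in most hormone libraries in both rows, and Cdkn1c and Peg3 in Fabp4+ cells. Ndn varies less, with the E2 libraries in Fabp4+ and the E2 + P4 libraries in Tnc+ cells below those of the layout without hormone. VCD_High_PBDE_E2 (E2, triangle) is nearer to the E2 + P4 libraries than the other E2 libraries are for H19 and Cdkn1c.

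Of 9 members tested for E2 in Fabp4+ cells, 7 were called, 6 higher and 1 lower, where 15.9% of 12148 genes were called and 8.26% called higher. The median log2 fold change of the 9 was 1.3, against -0.02 over all genes. The members were chosen with earlier results of these data known, so these shares and medians describe them and do not test them as a set. Beside those above, Plagl1 was higher by 0.66 ± 0.18 (adjusted p = 0.0382) and Ndn fell by 0.29 ± 0.09 (adjusted p = 0.0491), calls kept in 2 and 1 of the 9 fits that left out a library. Ndn in Fabp4+ cells was 154 to 188 CPM without hormone, 135 to 147 with E2 and 135 to 164 with E2 + P4. In Tnc+ cells, where Ndn was not called for E2, these ranges were 169 to 186, 129 to 183 and 116 to 139 CPM. In Tnc+ cells 4 of 8 members were called, all higher, where 21.8% of 10341 genes were called and 11.5% called higher, and the median of the 8 was 0.76 against -0.00 over all genes. The 4 were H19, Mest, Meg3 and Plagl1 (0.81 ± 0.24, adjusted p = 0.0357), and Plagl1 was kept in 2 of 9 such fits. Without VCD_Vehicle the count was 2, and the share of all genes called in that fit is not given here. In Dpp4+ cells 1 of 9 was called (10.3% of all genes) and in Gdf10+ cells 1 of 9 (3.71% of all genes), Cdkn1c. The Dpp4+ call was Dlk1, lower at -2.05 ± 0.53 (adjusted p = 0.0494), with overlapping groups, and it rests on few cells, since 47 of the Dlk1 UMIs without hormone came from 6 cells of VCD_Low_PBDE and 22 from 2 cells of VCD_High_PBDE. It was not called without VCD_High_PBDE_E2 (adjusted p = 0.0785). Grb10 was not called in any subset, with effects of 0.24 ± 0.06 in Dpp4+ (adjusted p = 0.0526), 0.28 ± 0.11 in Gdf10+, -0.20 ± 0.07 in Fabp4+ and -0.23 ± 0.14 in Tnc+ cells, and these effects differed between the subsets (adjusted p = 0.00431 in edgeR), a call lost without VCD_High_PBDE. Igf2 was under the filter on low counts in Fabp4+ cells, with 10, 13 and 4 UMIs (0.701, 1.17 and 0.947 CPM) in VCD_Low_E2_P4, VCD_E2_P4 and VCD_High_PBDE_E2_P4 and 4 UMIs or fewer in each other library. Over the 4 subsets the E2 effect differed for 5 of 10 members, Peg3, Cdkn1c, Grb10, Meg3 and Dlk1, where 25.2% of all genes were called. The count was 2 without VCD_High_PBDE and 8 without VCD_E2. The shares of all genes called in these fits are not given here.

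**Figure D4:**
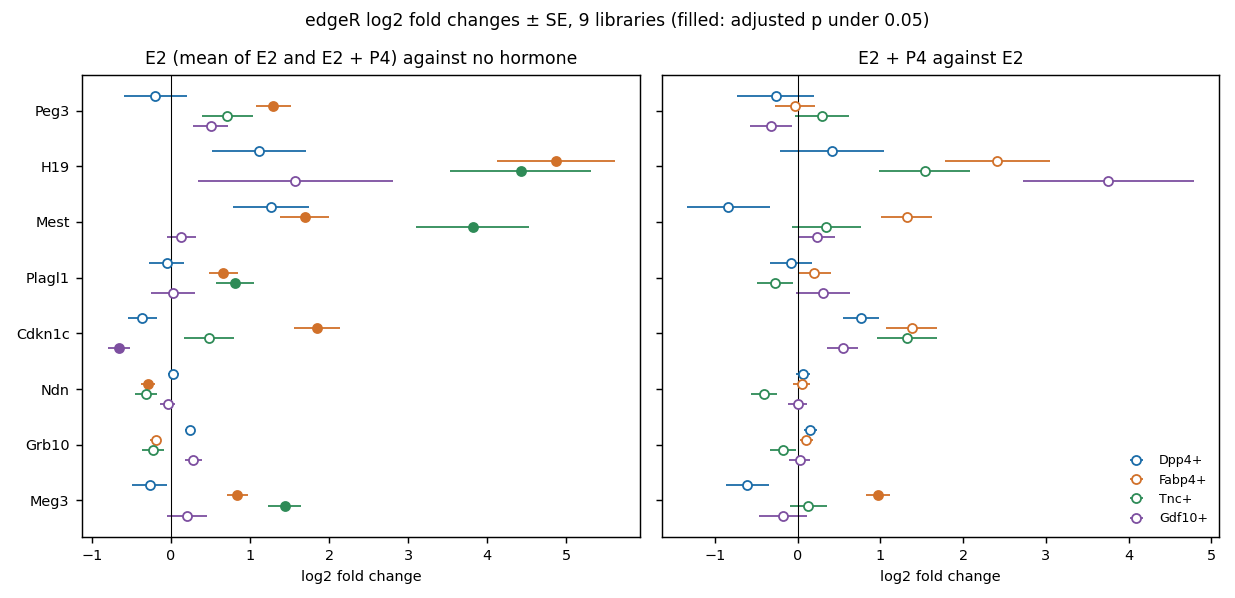
Log2 fold changes of 8 members (without Igf2 and Dlk1) for E2 (left) and for P4 (right) in the 4 fibroblast subsets, with bars of 1 SE, filled where the edgeR call passed 0.05 after adjustment over all genes. The E2 effects of H19, Mest, Cdkn1c, Peg3 and Meg3 lie above 0 in Fabp4+ cells, while those of Cdkn1c lie below 0 in Dpp4+ and Gdf10+ cells.

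E2 alone, a contrast added after the data were seen that compares only the E2 libraries with those without hormone, called 2 of 9 members in Fabp4+ cells (3.71% of all genes), Peg3 (1.31 ± 0.25) and H19 (3.66 ± 0.82), and 2 of 8 in Tnc+ cells (7.7% of all genes), Mest (3.64 ± 0.79) and Meg3 (1.37 ± 0.23), all 4 higher. In Gdf10+ cells it called 1 of 9 (1.04% of all genes), Cdkn1c, which was lower (-0.93 ± 0.17, adjusted p = 0.0246 in edgeR). In Dpp4+ cells edgeR called 0 of 9 (4.8% of all genes, 3152 genes unadjusted, 775 in DESeq2). Without VCD_High_PBDE_E2 the H19 value was 1.97 and still called (adjusted p = 0.0219), while Peg3 in Fabp4+ cells (1.36, adjusted p = 0.056) and Cdkn1c in Gdf10+ cells (-0.91, adjusted p = 0.091) were not. P4, taken as E2 + P4 against E2, called Meg3 in Fabp4+ cells (0.97 ± 0.14, adjusted p = 0.0281), 1 of 9 members, where 0.412% of all genes were called, and the call was kept in 4 of 9 fits that left out a library. H19 (2.41 ± 0.63, adjusted p = 0.109), Cdkn1c (1.38 ± 0.31, adjusted p = 0.0812) and Mest (1.31 ± 0.31, adjusted p = 0.0875) were not called there. Without VCD_High_PBDE_E2, H19 (3.77, adjusted p = 0.0021) and Cdkn1c (1.79, adjusted p = 0.0431) were called for P4 in Fabp4+ cells beside Meg3, and Mest was not (1.5, adjusted p = 0.11), in a fit that called 0.573% of all genes. In Tnc+ cells 4 of 8 members were then called (8.83% of all genes), Cdkn1c (2.05), H19 (1.96) and Mest (1.32) higher and Ndn (-0.55) lower. With it, edgeR called no member for P4 in Tnc+ cells (1.99% of all genes called, 1675 genes at an unadjusted p under 0.05, and 227 genes and 1 member in DESeq2). It called none in Dpp4+ cells (0% of all genes, 1322 genes unadjusted, and 115 genes and 1 member in DESeq2) and none in Gdf10+ cells (0.00914% of all genes, 898 unadjusted, 22 genes and 0 members in DESeq2). For the difference of the P4 effect between subsets, tested after the data were seen, 0 of 10 members were called (6.15% of all genes, 2555 genes unadjusted, 897 in DESeq2).

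Luminal epithelial cells were read for known hormone targets. The calcitonin gene Calca and Tnfsf11, which encodes RANKL, are known progesterone targets of luminal cells. VCD_E2_P4 held 923 Calca and 72 Tnfsf11 UMIs in 21 luminal cells and VCD_Low_E2_P4 467 and 7 in 11 cells, while VCD_E2 held 1 and 0 in 44 cells and VCD_Low_E2 2 and 0 in 25 cells. VCD_High_PBDE_E2, whose fibroblasts were within the E2 + P4 range for H19 in Fabp4+ cells and Cdkn1c in Tnc+ cells and below it for Cdkn1c in Fabp4+ and H19 in Tnc+ cells, held 1 Calca and 0 Tnfsf11 UMIs in 8 luminal cells of 547822 UMIs. VCD_High_PBDE_E2_P4 had 3 luminal cells, with 9 and 0 UMIs. Libraries given no hormone also held Calca, with 560 UMIs in 6 luminal cells of Intact and 14 in 11 cells of VCD_Vehicle. VCD_Vehicle_NormEnv held 10 in 8 cells, VCD_Low_PBDE 4 in 19 cells and VCD_High_PBDE 0 in 6 cells. The cause of the high levels in VCD_High_PBDE_E2 was not tested.

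Neither PBDE level gave a call among the 10 members in the gated fibroblasts. For low PBDE, edgeR called 0 of 10 members and 0% of all genes (672 genes at an unadjusted p under 0.05, and 6 in DESeq2). For high PBDE it called 0 of 10 members and 0.449% of all genes (3007 unadjusted, and 652 in DESeq2). The effects of low PBDE ran from -0.82 ± 0.70 for H19 to 1.27 ± 0.81 for Dlk1, and those of high PBDE from -1.28 ± 0.55 for Igf2 to 0.68 ± 0.73 for H19, which was -0.72 (adjusted p = 0.245 in edgeR) without VCD_High_PBDE_E2.

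In Fabp4+ cells of the E2, E2 + P4 and Intact libraries, H19, Cdkn1c, Meg3 and Peg3 were higher in cells with a Postn UMI. Postn encodes the matrix protein periostin and is also a marker of the Tnc+ list. The split was made after the data were seen, and was described and not tested. In VCD_E2_P4, the 413 cells with a Postn UMI held H19 at 186 CPM and the 47 without at 6.11 CPM. The same cells held Cdkn1c at 379 and 79.5 CPM, Meg3 at 340.2 and 103 CPM, Peg3 at 137 and 37.9 CPM, and Ndn at 135 and 139 CPM. In VCD_Low_E2_P4 H19 was 134 and 2.28 CPM and Cdkn1c 332 and 49.1 CPM, and in VCD_High_PBDE_E2 H19 was 153 and 8.82 CPM. In VCD_E2 H19 was 12.6 and 4.15 CPM, Cdkn1c 122 and 50.7 CPM and Peg3 201 and 89.8 CPM. VCD_Low_E2 held H19 at 15.9 and 0.346 CPM and Peg3 at 254 and 100 CPM. Intact held H19 at 21.3 and 0 CPM, Peg3 at 249 and 86.9 CPM and Meg3 at 224 and 81.4 CPM. Without hormone, VCD_Vehicle held H19 at 1.43 and 1.81 CPM and Cdkn1c at 28.8 and 38.0 CPM, and Cdkn1c was lower with a Postn UMI in all 3 libraries of the layout, while H19 was 7.62 and 0.327 CPM in VCD_High_PBDE. Cells with a Postn UMI were deeper (median 24227 against 17878 UMIs in VCD_E2_P4) and were 54.0% to 90.3% of the Fabp4+ cells, with the higher shares in the E2 + P4 libraries (84.6% to 90.3%) and VCD_High_PBDE_E2 (86.8%) and 80.9% in Intact. VCD_E2 (56.7%) and VCD_Low_E2 (59.5%) were near the libraries without hormone (54.0% to 58.0%) in this share, but not in the level of Postn. Over all Fabp4+ cells Postn was 951 CPM in VCD_E2 and 1221 CPM in VCD_Low_E2. It was 514, 352 and 420 CPM in VCD_Vehicle, VCD_Low_PBDE and VCD_High_PBDE, and 2673 to 5686 CPM in the E2 + P4 libraries. The part of these shares and levels in the hormone effects was not tested.

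**Figure D5:**
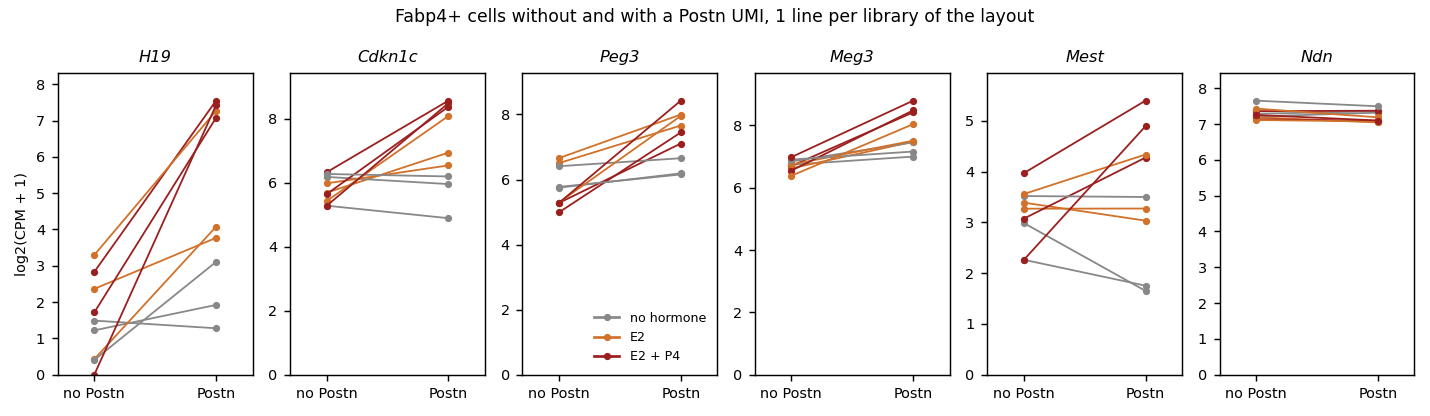
Levels of 6 members in Fabp4+ cells without (left) and with (right) a Postn UMI, on a log2(CPM + 1) axis, 1 line per library of the layout, coloured by hormone level. The lines of the E2 and E2 + P4 libraries climb for H19, Cdkn1c, Peg3 and Meg3, those of the libraries without hormone fall slightly for Cdkn1c and climb less for Peg3 and Meg3, and Ndn changes little in any library.

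Over the 48 sums of library and subset, the genes most like a member were sought among 7765 genes of at least 10 CPM, as a description over points that share libraries and subsets. The closest to Peg3 was Zim1, its imprinted neighbour (Pearson r = 0.95), followed by Acot7 and Arhgap32 (0.91 each). Grb10 was closest to Rcan2 (0.94), Meg3 to Mfap5 (0.93), H19 to Angptl2 (0.85), Cdkn1c to Id1 (0.87), Plagl1 to Pla1a (0.88) and Ndn to Serping1 (0.85). Among the 21 pairs of the 7 members of at least 10 CPM (without Igf2, Mest and Dlk1), Plagl1 and Meg3 were the most alike (0.71) and Peg3 and Grb10 the most opposed (-0.84).

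A wider list of 49 imprinted genes, none of them a member, was read in the same fits. This list and that of the partners below were also chosen with earlier results of these data known. For E2 in Fabp4+ cells 8 of the 31 tested were called, 6 higher and 2 lower (25.8% against 15.9% of all genes), with Peg10 (1.59 ± 0.16), a retrotransposon-derived gene, Zim1 (2.16 ± 0.25) and Begain (0.98 ± 0.15) having the lowest adjusted p. In Tnc+ cells 6 of 26 were called (23.1% against 21.8% of all genes), among them Mirg (2.58 ± 0.52), a non-coding RNA of the Meg3 region, and H13 (0.52 ± 0.12) higher and Sgce (-0.74 ± 0.13) lower. In Dpp4+ cells 2 of 34 were called (5.88% against 10.3% of all genes), Zdbf2 (-1.69 ± 0.35) and Cd81 (0.26 ± 0.07), and in Gdf10+ cells edgeR called 0 of 26 (3.71% of all genes, 2 of the list unadjusted, 0 in DESeq2). For P4 edgeR and DESeq2 called 0 of the list in each subset, and at an unadjusted p under 0.05 there were 8 in Fabp4+, 4 in Tnc+, 5 in Dpp4+ and 1 in Gdf10+ cells. In the test between subsets, edgeR called 9 of 34 for E2 (26.5% against 25.2% of all genes), with Sgce, Peg10 and Airn first by adjusted p, and 5 of 34 for P4 (14.7% against 6.15%), with Peg10, Begain and Dhcr7 first. The medians of the tested genes were 0.11, 0.21, 0.09 and -0.00 in Fabp4+, Tnc+, Dpp4+ and Gdf10+ cells. Among 10 partners of IGF2 and DLK1 (Igf2r is on both lists), the receptor gene Igf1r was lower with E2 in Fabp4+ (-0.37 ± 0.07) and Tnc+ cells (-0.93 ± 0.16), and so was Igf2bp3, which encodes an RNA-binding protein (-0.93 ± 0.21 and -1.82 ± 0.29). Irs2 was lower in Tnc+ (-0.61 ± 0.11) and Dpp4+ cells (-0.64 ± 0.11), Notch1 higher in Tnc+ cells (1.16 ± 0.26) and Igf2bp2 higher in Dpp4+ cells (0.85 ± 0.19). That is 2 of 9 partners called in Fabp4+ cells, 4 of 9 in Tnc+, 2 of 9 in Dpp4+ and 0 of 9 in Gdf10+ cells, against 15.9%, 21.8%, 10.3% and 3.71% of all genes. In the test between subsets 6 of 9 partners were called for E2 (25.2% of all genes) and 2 of 9, Igf2bp3 and Irs2, for P4 (6.15% of all genes). For P4 within a subset, Igf1r was called in Fabp4+ cells (-0.52 ± 0.08, adjusted p = 0.0323 in edgeR) and Irs2 in Tnc+ cells (-0.64 ± 0.13, adjusted p = 0.0364). Both were lower and each was 1 of 9, where 0.412% and 1.99% of all genes were called. Against the other subsets, edgeR called 7 of 9 partners in Dpp4+, 7 in Fabp4+, 8 in Tnc+ and 4 in Gdf10+ cells, and 26, 25, 22 and 19 of the 34 wider genes tested, against 69.8%, 55%, 52.3% and 43.2% of all genes. The lowest adjusted p among the partners was that of Notch1 in Dpp4+ (-3.51 ± 0.13) and Fabp4+ cells (2.40 ± 0.09), Igf2r in Tnc+ (-0.67 ± 0.07) and Notch2 in Gdf10+ cells (-0.92 ± 0.07).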

How the data were processed

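Mammary gland cells of 12 mouse groups, 1 library each, were analysed. Per the labels and the study's methods, the authors made Chromium v3 3′ libraries and deposited UMI counts per gene and barcode from Cell Ranger 3.1.0 on mm10, without normalization. The labels name another sequencer than the methods, and the reads were not used here. Cells with fewer than 500 genes, fewer than 1000 UMIs or over 5% mitochondrial UMIs were dropped, as in the study. Cells with a UMI of 1 of the 6 genes of the study's negative selection were not taken as fibroblasts, so a lack of immune markers such as Ptprc in the subsets is a result of the selection. Fibroblasts needed 40 marker UMIs per 10000, the Dpp4+ gate 8, the other gates 4, and a cell passing several gates went to none. Other cell types needed 8 and at least 3 markers. No doublet caller was applied in the reported values, and an alternative dropped 0.8% of cells per 1000 barcodes by simulated-doublet score.

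Counts were summed per library and subset, since cells are not replicates, keeping sums of at least 10 cells. Tests used edgeR 4.0.16 (quasi-likelihood, TMM, filterByExpr, Benjamini-Hochberg over all genes tested, 0.05) in R 4.3.3, with hormone and PBDE as additive terms over the 9 libraries of the layout, or library and subset over 48 sums. Values are log2 fold change ± SE, the SE taken from the fold change and its F value. CPM intervals are exact Poisson and cover counting error only. Adding VCD_Vehicle_NormEnv, DESeq2 1.42.0, RLE factors, no low-count filter, a 10% mitochondrial limit, no negative selection, doubled gates, doublets removed, the library code of the file names as a term and leaving out each library were alternatives. The removal of shared barcodes, E2 alone, the P4 test between subsets and the Postn split were added after the data were seen. The members and lists were chosen with earlier results of these data known, and all 10 members are named, with, for E2, the 3 called genes of lowest adjusted p from the wider list (46 of its 49 genes were in the files). Partners (10 of 10 in the files) are given as counts, with those called for E2 or P4 in a subset named and, between subsets, the 1 of lowest adjusted p. The code was tested on simulated data.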

Additional observations from a re-analysis of the deposited data

Results flagged for a closer look

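The E2 effect differed between the Dpp4+, Fabp4+, Tnc+ and Gdf10+ fibroblasts for 5 members, by a test of the difference itself in edgeR adjusted over all genes. For Cdkn1c, which rose in Fabp4+ cells and fell in Gdf10+ cells, the adjusted p was 8.57e-06. For Dlk1 it was 0.00223, on counts near the detection limit in most sums. That call was lost without VCD_Low_PBDE and with the library code as a term. For Grb10, with effects from -0.23 in Tnc+ to 0.28 in Gdf10+ cells, none of them called, it was 0.00431, and the call was lost without VCD_High_PBDE. For Meg3, which rose in Fabp4+ and Tnc+ cells, it was 0.00604, also lost without VCD_High_PBDE. For Peg3, which rose in Fabp4+ cells, it was 0.0318, kept in 3 of 9 fits that left out a library. The causes of these differences were not tested.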

How the results depend on the processing

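Across 17 comparisons, those for E2 alone and for P4 between subsets not among them, 65 member results were called. Under 9 other settings of the processing 459 of their values kept their call, 31 lost it and 0 changed sign, and with shared barcodes removed 64 kept it and 1, Ndn for E2 in Fabp4+ cells, lost it. In the fits that left out a library, 650 kept it and 67 lost it. These totals pool the hormone calls with those between subsets (6, 7, 7 and 7 calls) and against immune (10) and endothelial cells (9). Several hormone calls were kept in few of these fits, as given above, so the totals do not describe the hormone calls by themselves. The 5 calls for E2 alone kept 43 of 50 values in other settings and 29 of 45 without a library, and 0 changed sign; H19 in Fabp4+ cells then ranged from 1.97 (without VCD_High_PBDE_E2) to 4.23, and was called in 4 of 9. The number of members called for the difference of the E2 effect between subsets was 5, and 8 with a 10% mitochondrial limit, 8 without negative selection, and 2 to 8 when a library was left out. For E2 in Dpp4+ cells it was 1, and 0 with the library code as a term, 0 in DESeq2, 0 with a 10% mitochondrial limit, 0 with doublets removed, and 0 to 2 without a library. For E2 in Gdf10+ cells it was 1, and 0 with the library code, 0 in DESeq2, 0 without negative selection, 0 with stricter gates, 3 with no low-count filter, and 0 to 2 without a library. For E2 in Tnc+ cells it was 4, and 2 to 4 without a library, with 2 without VCD_Vehicle. For P4 in Fabp4+ cells it was 1, and 2 in DESeq2, 4 with no low-count filter, 0 with VCD_Vehicle_NormEnv added, and 0 to 3 without a library. For P4 it was 0 in Dpp4+ cells and 1 in DESeq2, 0 in Gdf10+ cells and 1 with no low-count filter and 0 to 1 without a library, and 0 in Tnc+ cells, 1 in DESeq2, 2 with no low-count filter and 0 to 4 without a library. The shares of all genes called under these other settings are not given here, so these counts cannot be set against them. The causes were not tested. The reported hormone fits already held the PBDE level, and the subset fits the library, as a term, and the labels give no replicate numbers that could form a further block. With 1 library per combination of hormone and PBDE, an interaction of hormone and PBDE could not be tested. Igf2 and Dlk1 were near the detection limit in most sums, and the Dlk1 UMIs came from few cells.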
